A study of Mus musculus with 9 samples.

Results

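Oocytes of mice that had been stressed and then given the herbal recipe KYZY were compared with oocytes of untreated mice, to ask what still differed from the untreated state. The comparison used all 6 libraries labelled control or stress plus herbal medicine, of 9 libraries in the series, and all 24736 genes listed for them. All mice were ICR females labelled 4-5 week-old. The stress and the gavage described next took longer than that, so the label cannot be the age of the stressed mice when eggs were taken, and whether it is the age at the start is not stated. The 3 control mice had no stress. The 3 KYZY mice met a daily stressor (tail pinch, cold swim, food or water deprivation, wet bedding, constant light or restraint) for 6 weeks, and then received 0.1 ml of the decoction by gavage once daily for 4 weeks. The remaining 3 mice had the stressors and no recipe, and are used here for their values and for the estimate of the spread. All groups, control included, were superovulated with 7.5 IU of PMSG and 7.5 IU of HCG. Eggs were taken 16 hours later, freed of cumulus cells with hyaluronidase, and pooled as 15 oocytes per mouse, with 1 library per mouse.

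The labels name no gavage with vehicle and no untreated mice kept for the extra weeks. They describe the sequencing of the KYZY libraries differently (a Novaseq S4 kit, where those of the other groups name a cBot cluster kit). The recipe, the gavage, the added weeks and the sequencing cannot be told apart from one another in these data. In KYZY against control the stress differed together with them.

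A mouse egg at the second meiotic metaphase makes almost no new RNA. Its transcripts were laid down during growth in the follicle, are stored, translated or degraded in order, and carry the embryo until its own genome becomes active. The egg depends on pyruvate, which its mitochondria oxidise, and takes up metabolites from the cumulus cells around it. Cumulus cells carry out most of the glycolysis of the complex and adhere to the zona pellucida, so that denudation can leave some of their RNA with the eggs.

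The labelled cell type was borne out by its defining genes. Zbed3, a subcortical maternal complex gene, was at 49886, 36106 and 39251 CPM (a gene's count relative to the library total, scaled by the TMM method) in control 1, 2 and 3 and at 53307, 42414 and 41212 in KYZY 1, 2 and 3. Gdf9, the growth factor that oocytes secrete, was at 15710, 10459 and 11446 CPM in control and 16017, 10511 and 9848 CPM in KYZY. The zona protein gene Zp3 was at 135, 84.9 and 60.4 CPM in control and 91.1, 59.1 and 52.8 CPM in KYZY. Each of these genes had overlapping groups.

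The libraries held totals of 46324094 to 82214112 counts in the 6 compared samples and 13257 to 15802 genes above 0. They differed in RNA of other cells before any comparison was made. The cumulus and granulosa score, the mean of log2(CPM + 1) over 26 measured markers, was 0.85, 1.10 and 2.16 in control 1, 2 and 3 and 1.04, 2.74 and 2.75 in KYZY 1, 2 and 3. Control 3, KYZY 2 and KYZY 3 thus stood apart from control 1, control 2 and KYZY 1, and they did so on the first principal component as well, at 35.1, 44.1 and 51.6 against -31.8, -31.9 and -23.1. Of the stress libraries, stress 3 was high, with a score of 1.98. With 2 of 3 KYZY libraries and 1 of 3 control libraries high, 22 of 26 cumulus markers had a log2 fold change above 0 in KYZY, none of them passing the test. Their summed level was 231 to 512 CPM in control and 155 to 834 CPM in KYZY, so the groups overlapped. Cited2, at 103 to 270 CPM in all 6 libraries, was most of that sum in the libraries of low score. In control 1, control 2 and KYZY 1, 14, 12 and 9 of the 26 markers were at 0, against 1, 1 and 0 in control 3, KYZY 2 and KYZY 3. In a pool of eggs, fewer attached cells and less RNA per cell cannot be told apart.

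Some other markers, picked after their values were seen, show how the high libraries differed from one another. Tnfaip6, which stabilises the cumulus matrix, was at 0 in control 1, control 2 and KYZY 1 and at 1.94, 16.5 and 10.4 CPM in control 3, KYZY 2 and KYZY 3. Star, the mitochondrial cholesterol carrier of steroid-making cells, was at 54.9 and 76.9 CPM in control 3 and KYZY 3 but at 4.86 CPM in KYZY 2. Acta2, smooth muscle actin, was at 10.7 and 16.6 CPM in control 3 and KYZY 3 and at 0 in KYZY 2. KYZY 2 held the matrix proteoglycan gene Vcan at 39.8 CPM (5.52 in control 3, 6.33 in KYZY 3) and the macrophage lysozyme gene Lyz2 at 58.1 CPM (1.99 and 5.84). Of the 3 libraries, KYZY 2 was thus the lowest in Star and Acta2 and the highest in Tnfaip6, Vcan and Lyz2. Summed markers of blood and immune cells came to 15.6 to 35.5 CPM in control and 7.55 to 92.2 CPM in KYZY (12 of 18 higher). Those of stroma and endothelium came to 130 to 237 CPM and 134 to 268 CPM (20 of 24 higher), and those of oviduct epithelium to 1051 to 2351 CPM and 992 to 1770 CPM (10 of 18 higher), most of it from Tubb4b and Cdh1 in each library.

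No gene passed the test between KYZY and control oocytes. Of 13890 genes tested by the edgeR quasi-likelihood test, 0 (0%) had a Benjamini-Hochberg adjusted p under 0.05, and the smallest adjusted p was 0.996. An unadjusted p under 0.05 was reached by 380 genes (2.74%), 121 higher (0.871%) and 259 lower (1.86%) in KYZY. The 3 KYZY values lay wholly above the 3 control values for 338 genes (2.43%) and wholly below for 666 genes (4.79%), in all 7.23% of genes. These splits moved with the scaling. With DESeq2 size factors 244 genes of unadjusted p under 0.05 were higher and 229 lower, and 439 genes lay wholly above and 545 wholly below. With upper-quartile scaling the 4 counts were 151, 205, 408 and 568, and with total counts they were 63, 270, 154 and 907, where the median of all genes moved from -0.0032 to -0.15. The DESeq2 Wald test called 1 of 13808 genes (0.00724%), and voom with library weights called 0, with 1305 genes at an unadjusted p under 0.05.

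The median Spearman correlation across genes, which are not independent replicates, was 0.936 within control, 0.924 within KYZY and 0.942 between them. These medians depend on how many pairs join a library of high cumulus score to one of low score. Such pairs were at 0.935 and 0.936 within control, 0.922 and 0.924 within KYZY, and 0.915 to 0.942 between the groups. All other pairs of control and KYZY libraries were at 0.957 to 0.978. The medians therefore do not compare the groups alone. Of all genes, 49.7% had a log2 fold change above 0 and 50.3% one below 0, and the median was -0.0032. The width of the interval differed with the level of the gene. The 95% interval of the log2 fold change lay within 1 on either side of 0 for 75.0% of the 3833 genes at 10 to 100 CPM and 70.7% of the 1285 genes at 100 CPM or more. At 1 to 10 CPM 33.8% of genes had such an interval, and under 1 CPM 0.0248% of genes did. Among the 1285 most abundant genes, 21 had a fitted difference of more than 1 on the log2 scale. For most abundant oocyte transcripts a 2-fold difference from control was thus outside the interval, and for nearly all transcripts under 1 CPM the interval did not exclude one. The intervals hold the spread between libraries as well as counting error, and the share of each was not tested.

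The 1 gene called by DESeq2 was Gm11758, a predicted gene on chromosome 4 (73872219 to 73876266, GRCm38). It was at 0.810, 1.04 and 0.651 CPM in control 1, 2 and 3, at 0.687, 0.567 and 1.40 in stress 1, 2 and 3, and at 0.0316, 0 and 0 in KYZY 1, 2 and 3. All 3 KYZY values were under the floor of 3 read pairs, which was 0.190, 0.176 and 0.245 CPM in those libraries, while every control and stress value was above its own. The DESeq2 adjusted p was 0.0143 and the edgeR adjusted p 0.996. DESeq2 was run on the deposited counts, in which 1 read pair appears to be worth 4 units. It was not rerun on counts divided by 4.

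The genes closest to a difference are described next by rank of unadjusted p, among genes whose groups did not overlap and whose mean reached 1 CPM in a group: 12 lower and 12 higher in KYZY. They were chosen by that contrast, so their separation is a description and no gene among them passed the edgeR test (adjusted p = 0.996 for each). Of the 23 that RefSeq lists, 14 overlap another gene. The protocol keeps no strand information, so for those the reads of 2 genes may be mixed.

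Anapc16, a small subunit of the anaphase-promoting complex, whose activity ends the metaphase arrest, was at 96.6, 88.4 and 69.6 CPM in control 1, 2 and 3 and at 43.9, 33.7 and 30.1 CPM in KYZY 1, 2 and 3. Its log2 fold change was -1.24 (SE 0.33; 95% interval -1.96 to -0.52). The stress libraries covered both ranges, at 50.5, 94.3 and 37.7 CPM. The gene (chromosome 10, 59987409 to 60003135) overlaps Ascc1. Dnajb4, a co-chaperone of Hsp70, was at 416, 254 and 331 CPM in control, at 318, 145 and 423 CPM in stress and at 156, 119 and 111 CPM in KYZY, with a log2 fold change of -1.38 (SE 0.37). It was the most abundant of the lower genes, and it overlaps Fubp1 (chromosome 3, 152181580 to 152210432). Tet1, a dioxygenase that oxidises methylated cytosine, was at 1.12, 1.68 and 1.48 CPM in control and at 1.30, 1.92 and 0.730 CPM in stress. In KYZY it was at 0.379, 0.323 and 0.490 CPM, a log2 fold change of -1.85 (SE 0.49). The Tet1 gene (chromosome 10, 62804570 to 62887469) overlaps Gm51805. Every KYZY library was below every stress library for Tet1, while the stress libraries overlapped KYZY for Dnajb4.

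Stra6l, a receptor for retinol-binding protein (chromosome 4, 45824293 to 45887010, overlapping Igfbpl1), was at 82.5, 88.3 and 45.9 CPM in control, at 32.0, 30.1 and 20.2 CPM in stress and at 30.2, 36.0 and 40.6 CPM in KYZY. Control stood above both other groups, and the log2 fold change from control was -1.02 (SE 0.28) in KYZY and -1.40 in stress. Pdpn, the mucin-type glycoprotein podoplanin, was at 39.6, 35.6 and 23.8 CPM in control and 12.4, 21.9 and 15.3 CPM in KYZY. Cntd1, a cyclin-related factor of meiotic crossing-over whose gene overlaps Becn1, was at 4.50, 6.33 and 1.64 CPM in control. In KYZY it was at 1.42, 0.998 and 1.45 CPM, and control 3 lay next to the KYZY values. Ccdc84, a subunit of the minor spliceosome that overlaps Rps25, was at 27.6, 25.8 and 15.1 CPM in control and at 10.98 to 14.1 CPM in KYZY. The others were Ift22 of intraflagellar transport, the myosin phosphatase subunit gene Ppp1r12b, Rnf32, the autotaxin gene Enpp2 and 9230110C19Rik, with log2 fold changes from -0.98 to -0.82.

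Among the 12 higher genes, Akap12, a scaffold for protein kinase A, was at 31.5, 25.4 and 40.1 CPM in control and 49.7, 60.3 and 45.8 CPM in KYZY, and the stress libraries were as high, at 59.6, 55.0 and 65.4 CPM. Grb7, an adaptor of receptor tyrosine kinases that overlaps Mien1 (chromosome 11, 98446834 to 98455373), was at 0.331, 0.334 and 2.34 CPM in control, 4.51, 7.90 and 9.14 CPM in stress and 8.51, 10.9 and 2.37 CPM in KYZY. For Grb7 control 3 and KYZY 3 were almost equal, and its log2 fold change of 2.86 had an interval of 0.81 to 4.91. Fam83d, a protein of the mitotic spindle, was at 4.91, 5.17 and 7.04 CPM in control and 13.2, 12.2 and 7.26 CPM in KYZY, again with control 3 and KYZY 3 side by side.

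Further higher genes were of modest level. Ly6e, a membrane-anchored protein, was at 4.17, 6.02 and 6.08 CPM in control, 4.99, 7.01 and 4.55 CPM in stress and 12.0, 8.40 and 9.63 CPM in KYZY, so that KYZY stood above both other groups. Sh3rf3, a ubiquitin ligase, had the narrowest spread, at 22.4, 23.2 and 24.4 CPM in control and 29.5, 35.5 and 34.8 CPM in KYZY, a log2 fold change of 0.51 (SE 0.17). The RNA-binding protein gene Msi2 was at 1.57, 2.50 and 3.65 CPM in control and 3.76, 7.99 and 5.63 CPM in KYZY. Tlcd2, Tbc1d17 (a regulator of Rab proteins), Sp140 (a chromatin reader), Ltbp3 (a binding protein of latent TGF-beta) and Rpl7l1 had log2 fold changes of 0.86 to 2.39. The plot of leading genes shows these values by library.

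**Figure D1:**
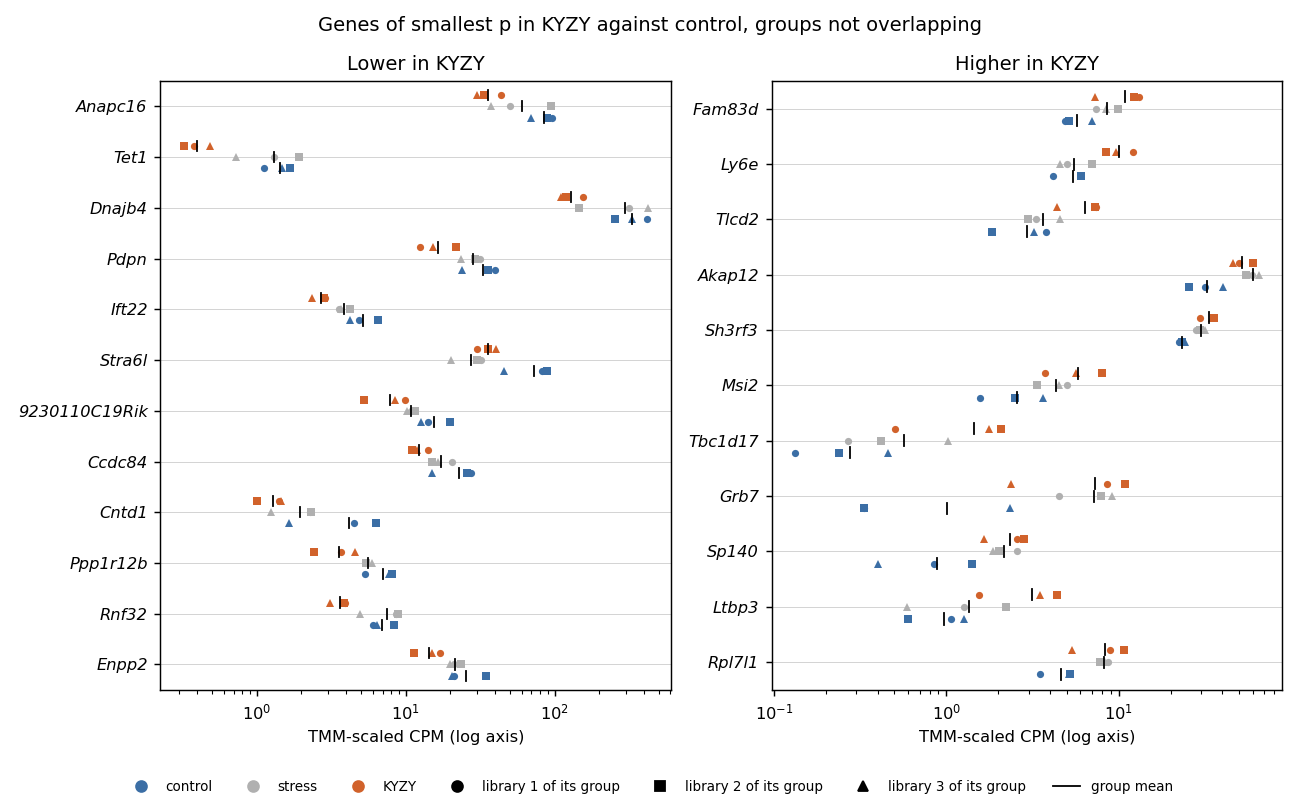
TMM-scaled CPM (log axis) of 12 lower (left) and 11 higher (right) genes of smallest unadjusted p in KYZY against control, with 1 point per library and a bar at each group mean. By the way they were chosen, no KYZY point (orange) overlaps the control points (blue); stress libraries (grey) are shown for their values, as for Stra6l, at 20.2 to 32.0 CPM.

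Genes of DNA damage response and repair, a list of 56, held the largest share of members wholly below control among 28 gene lists. An egg keeps these enzymes for its own chromosomes and for those the sperm brings. Of the 56 genes, 38 were lower and 18 higher in KYZY, with a median log2 fold change of -0.15 beside -0.0032 over all genes. For 11 members (19.6%) the KYZY values lay wholly below control, where 4.79% of all genes did, and for 1 they lay wholly above. None of the 56 passed the test.

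The 11 genes spanned several repair pathways. In nucleotide excision repair, the damage sensor gene Ddb2 was at 42.2, 54.2 and 35.7 CPM in control 1, 2 and 3 and at 34.5, 28.0 and 25.6 CPM in KYZY 1, 2 and 3, a log2 fold change of -0.59 (SE 0.21). The helicase gene Ercc3 was at 6.00, 10.2 and 4.69 CPM against 4.45, 4.14 and 3.96 CPM, and the sensor gene Xpc and the nuclease gene Ercc4 had log2 fold changes of -0.41 and -0.42. In each case the margin between the closest libraries of the groups was small beside the range within control. Ogg1, the glycosylase that removes oxidised guanine, was at 4.50, 4.59 and 4.06 CPM in control, at 4.17, 7.56 and 3.31 CPM in stress and at 3.17, 2.19 and 2.67 CPM in KYZY (-0.71, SE 0.33). The mismatch repair gene Msh3 was at 47.8 to 61.0 CPM in control and 39.7 to 45.7 CPM in KYZY.

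Both subunits of Ku, which binds broken DNA ends, were among the 11. Xrcc6 was at 8.66, 10.1 and 7.08 CPM in control and 6.11, 4.52 and 4.82 CPM in KYZY, and Xrcc5 was at 8.38, 11.4 and 9.68 CPM and 8.23, 7.91 and 6.10 CPM. Rpa3, a subunit of the complex that coats single-stranded DNA, was at 141, 55.4 and 49.3 CPM in control and 48.2, 43.7 and 31.8 CPM in KYZY, where control 1 made most of the log2 fold change of -0.99 (SE 0.38). Trp53bp1, which marks double-strand breaks, was at 158 to 192 CPM and 132 to 156 CPM, with stress at 110 to 135 CPM. The kinase gene Atm was the member wholly above control, at 1.94 to 2.25 CPM against 2.36 to 2.92 CPM. The most abundant members of the list overlapped: Chek1, a checkpoint kinase, was at 643 to 903 CPM in control and 693 to 1061 CPM in KYZY, and Ddb1 at 567 to 787 and 583 to 782 CPM.

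The median of the repair list was below 0 in each fit that left out 1 control or KYZY library, from -0.22 without KYZY 1 to -0.08 without control 2, and was -0.18 without control 3, stress 3, KYZY 2 and KYZY 3. The number wholly below control was 8 with DESeq2 size factors, 9 with upper-quartile scaling and 10 with total counts. Of all 13890 genes, 545, 568 and 907 were wholly below control in the same order, beside 666 with TMM scaling. The mean level of the list on the log2(CPM + 1) scale was 4.12, 4.11 and 3.97 in control 1, 2 and 3 and 4.04, 3.91 and 3.84 in KYZY 1, 2 and 3. The 3 libraries of high cumulus score were thus the lowest of the 6, although stress 3, also of high score, was at 4.09. With that score as a covariate the list median was -0.08 and that of all genes -0.06. The part of the marker score in this difference was not tested further.

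**Figure D2:**
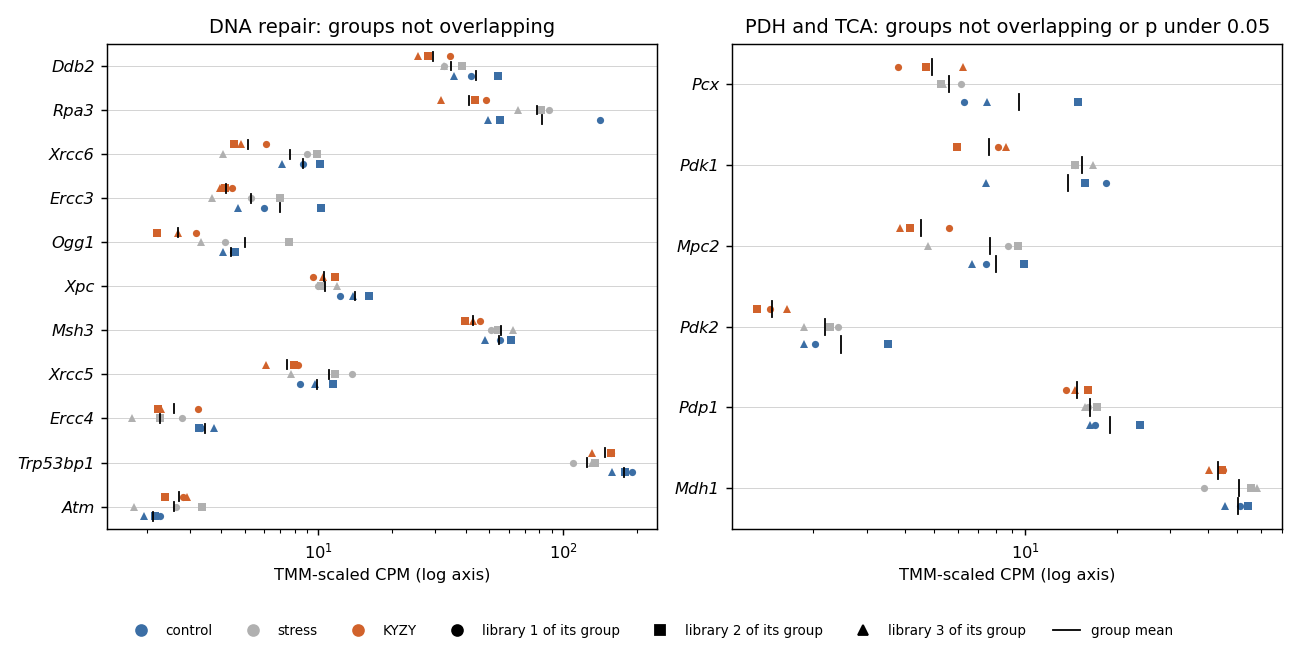
TMM-scaled CPM (log axis) by library for 11 DNA repair genes whose KYZY and control values do not overlap (left) and for 6 genes of pyruvate oxidation whose groups do not overlap or whose unadjusted p was under 0.05 (right), with a bar at each group mean. KYZY (orange) lies to the left of control (blue) for 10 of the 11 repair genes, Atm being the exception, with narrow gaps as for Ercc4.

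Pyruvate oxidation is the main source of energy of the egg. The list of pyruvate dehydrogenase and the tricarboxylic acid cycle held 33 measured genes, 16 higher and 17 lower, with a median of -0.06. For 5 of them (15.2%) KYZY lay wholly below control, against 4.79% of all genes, and 4 had an unadjusted p under 0.05 and were lower, against 1.86%. None passed the test.

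Pdha1 (chromosome X, 160122219 to 160138430), which encodes a catalytic E1 subunit of the pyruvate dehydrogenase complex, overlapped control. It was at 98.2, 79.4 and 67.9 CPM in control 1, 2 and 3 and at 85.1, 95.6 and 90.4 CPM in KYZY 1, 2 and 3, with an interval of the log2 fold change of -0.31 to 0.59. Of the regulators of the complex, Pdk1, Pdk2 and Pdp1 are given because their groups lay apart or their unadjusted edgeR p was under 0.05. Each had a lower mean in KYZY, and they do not stand for the other regulators. The inhibitory kinase genes Pdk1 and Pdk2 were at 18.5, 15.7 and 7.40 CPM against 8.13, 5.96 and 8.65 CPM, and at 2.02, 3.52 and 1.86 CPM against 1.44, 1.31 and 1.63 CPM. The activating phosphatase gene Pdp1 was at 17.0, 23.8 and 16.3 CPM against 13.6, 16.1 and 14.5 CPM, so that Pdk2 and Pdp1 were wholly below control and Pdk1 overlapped it through control 3. Pdk1 and Pdk2 act in the opposite direction to Pdp1, and the KYZY means of all these genes were on the same side of the control mean.

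Mpc2, a subunit of the carrier that brings pyruvate into mitochondria, was at 7.41, 9.92 and 6.65 CPM in control and 5.61, 4.16 and 3.86 CPM in KYZY (-0.82, SE 0.31). Pcx, which makes oxaloacetate from pyruvate, was at 6.28, 14.8 and 7.46 CPM in control and 3.79, 4.71 and 6.22 CPM in KYZY (-0.96, SE 0.34). The citrate synthase gene Cs, at 510 to 795 CPM in control and 539 to 867 CPM in KYZY, and the malic enzyme gene Me1, at 966 to 1381 and 1276 to 1365 CPM, were the most abundant and overlapped between groups. With DESeq2 size factors or upper-quartile scaling, 3 of the 33 genes lay wholly below control in place of 5. Of all 13890 genes, 545 and 568 did so with these scalings, in place of 666. Without KYZY 1 the list median was -0.16 and without KYZY 2 it was -0.01.

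Mitochondrial ribosomal proteins, which make the subunits encoded by mitochondrial DNA, showed members on both sides of control, 36 higher and 41 lower of 77 (median -0.06). In 7 (9.09%) KYZY lay wholly below control and in 1 wholly above, beside 4.79% and 2.43% of all genes. Mrpl47 was at 23.8, 26.0 and 23.5 CPM in control, 20.7, 22.5 and 22.5 CPM in stress and 17.6, 18.9 and 17.0 CPM in KYZY, and Mrps22 at 7.90, 8.16 and 7.63 CPM, 6.29, 7.07 and 5.68 CPM and 5.20, 4.35 and 5.47 CPM in the same order. For both genes the libraries of a group lay close together and the 3 groups did not overlap. The median of the list was 0.09 without control 3.

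Genes of cytosolic ribosomal proteins gave the highest median of the 28 lists, and it went with single libraries. Of 82 members, 78 had a log2 fold change above 0, with a median of 0.95, yet in 0 of them were the groups apart, where 2.43% of all genes lay wholly above control. The mean of the list was 2.72, 3.07 and 4.74 on the log2(CPM + 1) scale in control 1, 2 and 3 and 3.02, 4.64 and 5.38 in KYZY 1, 2 and 3. Control 3 thus exceeded KYZY 2, and KYZY 1 lay between control 1 and control 2. The same 3 libraries were high in the cumulus score. The median was 0.25 without KYZY 3, 2.04 without control 3 and 0.17 without the 4 libraries of highest score, and -0.16 with the score as a covariate. The most abundant members were Rpl4, at 398, 207 and 297 CPM in control and 383, 396 and 357 CPM in KYZY, and Rpl17, at 301, 206 and 197 CPM and 240, 143 and 181 CPM. Ribosomal protein genes have many near-identical pseudogene copies, so their counts are uncertain.

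In other lists too, control 3, KYZY 2 and KYZY 3 were the highest of the 6 libraries. The 41 subunits of respiratory complexes II to IV and ATP synthase were higher in 32, with a median of 0.44 that was -0.01 without KYZY 3 and 1.05 without control 3. Atp5b, the catalytic subunit of ATP synthase and the most abundant, was at 584, 421 and 435 CPM in control and 647, 487 and 475 CPM in KYZY. Complex I subunits had a median of 0.13 over 37 genes (24 higher), which was -0.22 without KYZY 3 and 0.69 without control 3, and antioxidant genes one of 0.29 over 47 (30 higher), which was -0.01 without KYZY 3 and 0.69 without control 3. The most abundant of these, the peroxiredoxin gene Prdx1, was at 1260 to 1973 CPM in control and 1565 to 1825 CPM in KYZY, and overlapped between groups. Nqo1, a quinone reductase, was at 3.67, 5.37 and 4.05 CPM in control, 3.43, 3.59 and 2.45 CPM in stress and 2.87, 2.53 and 2.29 CPM in KYZY (-0.77, SE 0.28), and Nfe2l2, which activates antioxidant genes, lay wholly above control, at 2.18 to 3.14 against 3.38 to 4.59 CPM.

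Glycolysis and glucose and lactate transport, the work of cumulus cells, had a median of 0.64 over 27 genes, 21 higher, with 0 wholly above control. Ldha, the lactate dehydrogenase subunit of somatic cells, chosen after its values were seen, was at 0, 0.525 and 22.0 CPM in control 1, 2 and 3, at 0.417, 2.31 and 25.4 CPM in stress 1, 2 and 3 and at 0.884, 129 and 54.5 CPM in KYZY 1, 2 and 3. It was high in the same 4 libraries as the cumulus markers. Ldhb, the abundant subunit of the egg, was at 2604, 1290 and 2348 CPM in control and 3252, 1783 and 2828 CPM in KYZY. The list median was -0.21 without the 4 libraries and 0.01 with the score as a covariate. Slc2a1, a glucose carrier, was lower, at 13.5, 21.5 and 8.78 CPM in control and 9.44, 9.16 and 6.33 CPM in KYZY. The plot of list levels against the marker score shows these lists beside DNA repair.

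**Figure D3:**
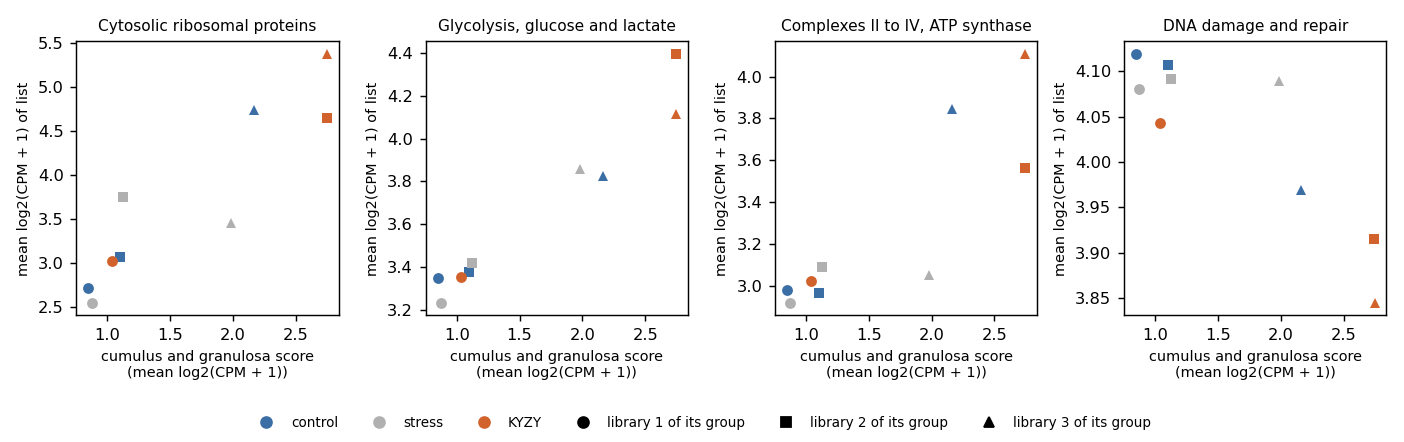
Mean log2(CPM + 1) of 4 gene lists (vertical axes) against the cumulus and granulosa marker score (horizontal axis) in the 9 libraries. Control 3 (blue triangle), KYZY 2 and KYZY 3 (orange square and triangle), at scores of 2.16, 2.74 and 2.75, are the highest for the first 3 lists among control and KYZY libraries and the lowest for DNA repair; KYZY 1 lies near control 1 and control 2.

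Among lists of the egg's own programs, those of maternal-effect, zona and growth factor, and egg activation genes had medians from -0.02 to 0.09. The median of all genes was -0.0032, and each list held members on both sides of control. The 23 maternal-effect genes had a median of -0.02 (10 higher, 13 lower, 0 with groups apart in either direction, beside 7.23% of all genes), and the 15 genes of the zona pellucida and oocyte growth factors one of 0.00033. Bmp15, a partner of Gdf9, was at 4056, 2815 and 2090 CPM in control and 6089, 2768 and 2149 CPM in KYZY. Fgf8, which oocytes send to cumulus cells to drive glycolysis, was at 11.9, 9.50 and 5.68 CPM in control and 6.27, 6.46 and 4.59 CPM in KYZY (-0.64, SE 0.28). The egg activation list (28 genes, median 0.09) held Itpr2, a calcium release channel gene, at 131, 114 and 83.5 CPM in control and 31.3, 73.4 and 71.7 CPM in KYZY, lowest in KYZY 1. Its log2 fold change was -0.90, and it was -1.94 and passed the edgeR test (adjusted p = 0.0098) without control 3, stress 3, KYZY 2 and KYZY 3, a fit that rests on KYZY 1 alone.

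Genes of meiotic maturation, the spindle and metaphase arrest had a median of 0.05 over 60 members (33 higher). In 3 (5.00%) KYZY lay wholly above control and in 2 (3.33%) wholly below, beside 2.43% and 4.79% of all genes. Besides Anapc16, Fbxo43, which encodes the inhibitor Emi2 that holds the egg at metaphase, was at 98.6, 86.6 and 160 CPM in control, 81.0, 93.5 and 225 CPM in stress and 163, 267 and 173 CPM in KYZY (0.81, SE 0.41). Cdc20, the activator of the anaphase-promoting complex, was at 148, 127 and 167 CPM and 174, 175 and 170 CPM in control and KYZY. Aurkc, a kinase of meiotic chromosomes, was at 76.4, 65.6 and 96.2 CPM in control, at 208, 219 and 67.9 CPM in stress and at 244, 245 and 90.9 CPM in KYZY, so that stress 1, stress 2, KYZY 1 and KYZY 2 stood above all other libraries and KYZY overlapped control through KYZY 3. Its log2 fold change of 1.28 became 1.81 and passed the edgeR test (adjusted p = 0.0153) in the same fit with KYZY 1 as the only KYZY library. Ccnb1, the regulatory cyclin of the kinase that drives M phase, was at 3527 to 5191 CPM in control and 4210 to 6608 CPM in KYZY. Cohesin and condensin genes had a median of 0.17 over 27 (20 higher), between 0.08 without control 2 and 0.29 without control 3. Rad21, the cleavable subunit of cohesin, was at 13.4, 14.2 and 13.5 CPM in control and 20.8, 20.7 and 15.2 CPM in KYZY (0.46, SE 0.19).

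Genes of DNA methylation and histone modification had a median of 0.03 over 64 (36 higher), with 3 (4.69%) wholly above and 3 (4.69%) wholly below control, beside 2.43% and 4.79% of all genes. Dnmt3b, a de novo DNA methyltransferase, was at 16.3, 19.5 and 15.1 CPM in control, 14.7, 20.9 and 12.1 CPM in stress and 10.7, 11.8 and 10.2 CPM in KYZY (-0.64, SE 0.23). With Tet1 and the deacetylase gene Sirt1 it made up the members wholly below control. The interval of the log2 fold change of Sirt1, -1.54 to 0.40, included 0. Crebbp, a histone acetyltransferase, was at 58.1, 56.0 and 59.7 CPM in control, 73.9, 67.7 and 79.6 CPM in stress and 73.3, 73.0 and 72.6 CPM in KYZY, a narrow log2 difference of 0.33 (SE 0.16) in which both stressed groups lay above control. Kmt2d, a histone H3 methyltransferase, was at 615, 278 and 638 CPM in control and 886, 875 and 747 CPM in KYZY.

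Lists on stored RNA and its use had medians from -0.09 to 0.12, beside -0.0032 for all genes. Maternal mRNA decay had a median of 0.10 over 41 genes and mRNA storage one of -0.04 over 34. Zar1l, related to an RNA-binding factor of the egg, was at 8.20, 7.24 and 5.33 CPM in control and 4.23, 3.85 and 4.53 CPM in KYZY (-0.72, SE 0.26), and its abundant relative Zar1 was at 2470, 1252 and 2976 CPM and 5092, 1901 and 2777 CPM. Spliceosome genes had 22 higher and 33 lower of 55 (median -0.09), with 5 (9.09%) wholly below control, beside 4.79% of all genes, among them Snrpa of the U1 particle at 8.89 to 11.4 CPM against 5.96 to 7.41 CPM. That median was 0.05 without control 1. Translation factors were higher in 35 of 51 (median 0.12), as with Eef1a1, at 1129, 665 and 788 CPM in control and 1452, 1278 and 1117 CPM in KYZY.

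Lists of stress hormone response and cell stress held members on both sides of control, and single members stood far from it, as Dnajb4 among the heat shock genes. The glucocorticoid response list had a median of 0.22 over 25 genes (19 higher), 0.79 without control 3 and -0.15 without the 4 libraries of highest score. Its abundant member Fkbp5, a chaperone of the receptor, was at 711, 467 and 611 CPM in control and 847, 539 and 564 CPM in KYZY. Sgk1, a kinase that glucocorticoids induce, was at 1.57, 1.40 and 5.16 CPM in control and 0.853, 54.3 and 8.71 CPM in KYZY, where its log2 fold change of 2.98 was 0.81 without KYZY 2 and -0.77 without the 4 libraries. Medians were 0.09 for heat shock and chaperones, 0.12 for endoplasmic reticulum stress, 0.04 for apoptosis, 0.12 for autophagy and lysosome, 0.18 for inflammation and interferon, 0.00045 for fatty acid oxidation and lipid droplets, 0.0023 for mitochondrial dynamics, 0.06 for the proteasome and -0.05 for PI3K, mTOR and insulin signalling. Hsp90aa1, the most abundant chaperone gene of the list, was at 2065 to 4152 CPM in control and 3025 to 4067 CPM in KYZY. The mitochondrial protease gene Lonp1 was at 16.2, 12.1 and 14.7 CPM in control and 17.1, 25.0 and 25.0 CPM in KYZY (0.64, SE 0.23).

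The plot of list medians shows how far single libraries set them. Of the 28 lists, 13 kept the sign of their median whichever control or KYZY library was left out, and 7 kept it also without the 4 libraries of highest score. On the lower side these were DNA repair, pyruvate dehydrogenase and the tricarboxylic acid cycle, and PI3K, mTOR and insulin signalling. On the higher side they were cytosolic ribosomal proteins, cohesin and condensin, translation factors, and heat shock and chaperones. Without the 4 libraries the median of all genes was -0.044, beside -0.049 for PI3K signalling, -0.060 for pyruvate dehydrogenase and 0.0012 for heat shock. With only those 4 libraries, the medians of cohesin and condensin (-0.046) and of PI3K signalling (0.046) had the other sign. That of cytosolic ribosomal proteins was below 0 with the marker score as a covariate.

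**Figure D4:**
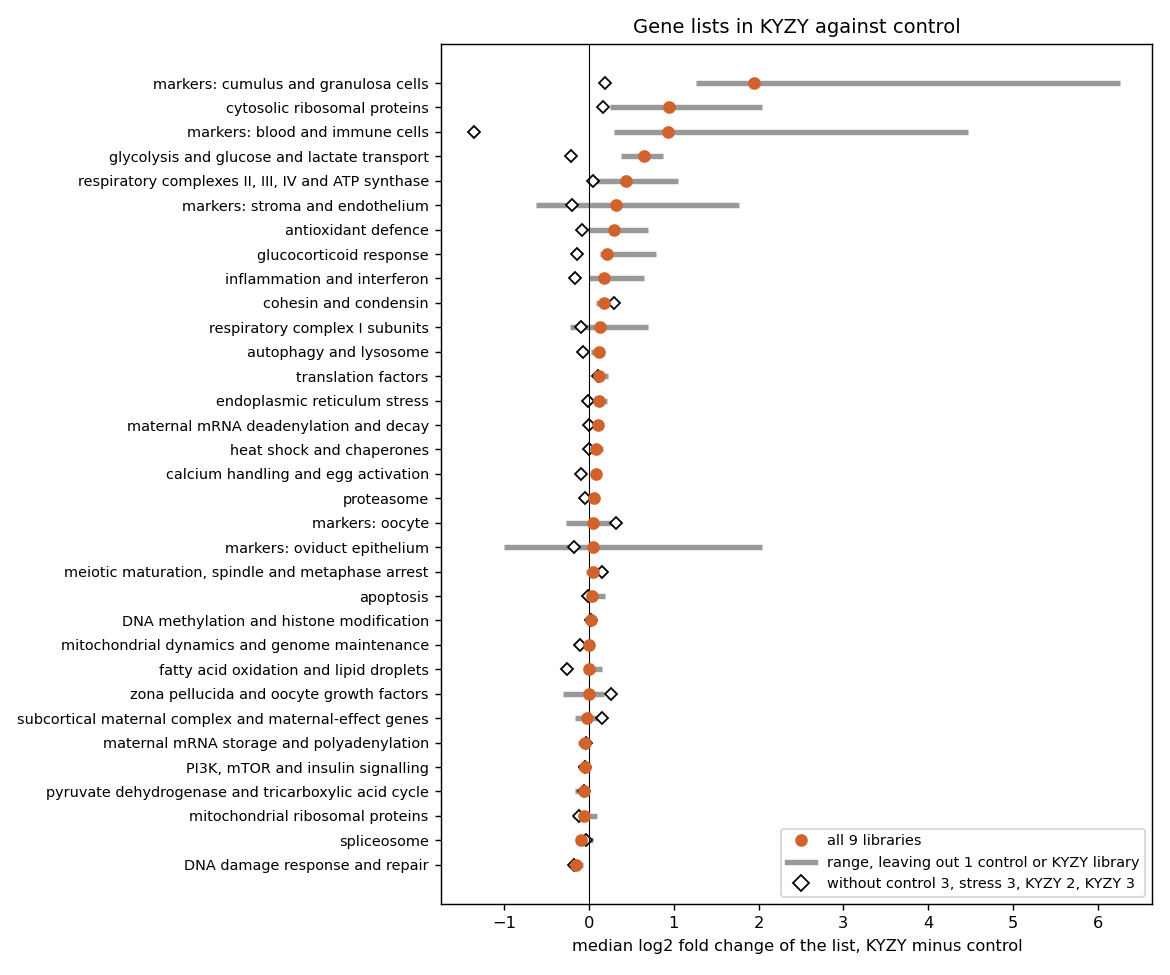
Median log2 fold change of each of the 28 gene lists and 5 marker lists, KYZY minus control: filled circles for all 9 libraries, grey bars for the range when 1 control or KYZY library is left out, open diamonds without control 3, stress 3, KYZY 2 and KYZY 3. Cumulus markers and cytosolic ribosomal proteins have medians of 1.95 and 0.95 with wide bars, and their diamonds are at 0.19 and 0.17; DNA repair is lowest at -0.15 with a narrow bar.

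The 10 genes of smallest p in stress against control, chosen by that comparison, are given with the values of all 3 groups. None passed the edgeR test between stress and control (adjusted p = 1.00 for each) or between KYZY and control (adjusted p = 0.996). The control libraries are common to both comparisons, so an extreme control value moves both differences. The choice of these genes thus partly sets how KYZY stands to control, and the values are given side by side as a description. Among all genes, 2.74% had an unadjusted p under 0.05 by edgeR in KYZY against control, and 7.23% had groups apart.

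For 6 of the 10 the interval of the difference between KYZY and control included 0. Besides Pdha1, which was at 44.3, 34.6 and 45.5 CPM in stress 1, 2 and 3, Wfs1, a membrane protein of the endoplasmic reticulum, was at 81.4, 60.9 and 54.4 CPM in control, 117, 127 and 118 CPM in stress and 77.6, 69.5 and 66.5 CPM in KYZY, with an interval of the difference between KYZY and control of -0.32 to 0.56. The chromatin remodeller gene Chd2 was at 2.86, 3.74 and 3.39 CPM, 1.26, 1.07 and 0.574 CPM and 4.26, 3.86 and 2.80 CPM in the same order, with an interval of -0.64 to 0.90. The organic anion carrier gene Slco4c1 was at 0.352 to 0.413 CPM in control, 1.36 to 2.17 CPM in stress and 0.411 to 0.793 CPM in KYZY, a difference from control of 0.60 (SE 0.48). Rmnd1, a factor of mitochondrial translation, and Plekhb1 had differences from control of -0.74 (SE 0.47) and -0.51 (SE 0.39). The KYZY and control libraries overlapped for each of these 6 genes.

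For the other 4 the interval did not include 0. Beside Stra6l, the bicarbonate carrier gene Slc4a10 was at 9.09, 12.3 and 5.20 CPM in control, 2.01, 2.86 and 3.04 CPM in stress and 2.94, 5.34 and 2.88 CPM in KYZY, a difference from control of -1.25 (SE 0.38) in which KYZY 2 overlapped control 3. Ica1l was at 5.21, 7.43 and 8.75 CPM, 16.2, 20.6 and 15.8 CPM and 11.2, 17.1 and 9.35 CPM, a difference of 0.82 (SE 0.28). Rufy2, which overlaps Hnrnph3, was at 11.4, 11.4 and 7.87 CPM, 5.61, 3.71 and 3.66 CPM and 6.65 to 7.05 CPM in the same order, so that KYZY lay between the other groups without overlap (-0.57, SE 0.25).

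**Figure D5:**
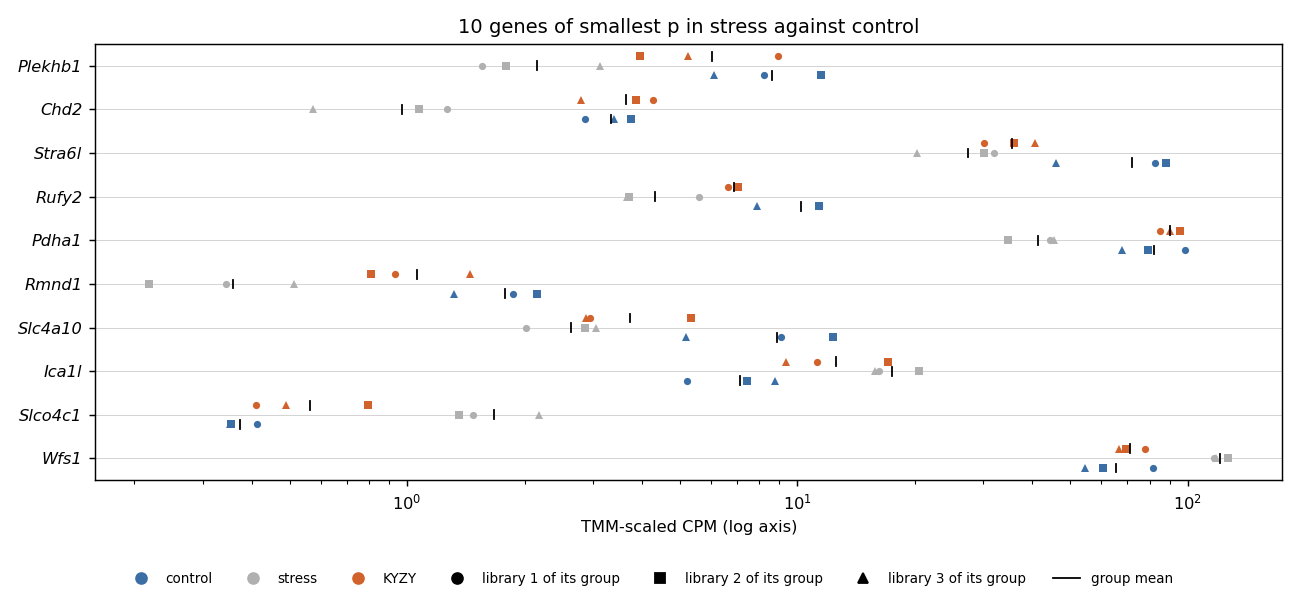
TMM-scaled CPM (log axis) by library for the 10 genes of smallest unadjusted p in stress against control, with a bar at each group mean. KYZY (orange) is with control (blue) for Pdha1, Wfs1 and Chd2, between the groups for Rufy2, and with stress (grey) for Stra6l, where KYZY is at 30.2 to 40.6 CPM.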

How the data were processed

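RNA of 15 metaphase II oocytes per mouse was amplified (SMART-Seq v4) and made into libraries by Tn5 tagmentation, per the labels' protocols, without molecular identifiers or strand information. The authors deposited 1 table per library of whole-number estimated counts (expected counts) per gene, not normalized. The tools in the submitters' processing notes are HISAT2, StringTie, DESeq2, Trim Galore and bcl2fastq 2.20, with GRCm38 and mm10 as builds, and settings and annotation are not given in the sources used here. The values 4 and 8 are in excess, so 1 read pair appears to be worth 4 units. The floor of a library is 3 read pairs (12 units), 0.105 to 0.245 CPM, and floors cover counting error only. SEs were derived from the fit as the absolute log2 fold change divided by the square root of the F statistic. Intervals were built from these SEs with the t distribution. Both hold the spread between libraries. Totals were 46324094 to 106990821, and 99.98% of counts were kept.

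Counts were fitted in R 4.3.3 with edgeR 4.0.16 on all 9 libraries (TMM scaling, filterByExpr with a minimum count of 10 and total of 15, 1 mean per group, robust quasi-likelihood fit, 2-sided F test, Benjamini-Hochberg adjustment over 13890 genes, threshold 0.05, 6 residual degrees of freedom). The biological coefficient of variation was 0.611. DESeq2 1.42.0 and limma 3.58.1 (voom) were alternatives, beside other scalings, filters and sets of libraries. The fit was run on simulated counts with planted differences but without the split of libraries by cumulus score. It therefore does not show how the test behaves under that split. Symbols were matched to RefSeq of GRCm38.p6 for positions (24076 of 24736). Named genes are the 12 higher and 12 lower genes of smallest p with groups apart and a mean of at least 1 CPM, genes called by edgeR or DESeq2, the 2 most abundant and 2 smallest-p genes of each list, the 10 of smallest p in stress against control, and Zp3, Gdf9 and Zbed3. List members whose groups lay apart are named as well. The comparison, the 28 gene lists, the 5 marker lists and the 4 libraries left out together were chosen with earlier results of these data known. The values of 3 genes that this rule gives are not reported here.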

Additional observations from a re-analysis of the deposited data

How the results depend on the processing

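The number of genes called in KYZY against control was 0 by edgeR and stayed at 0 in 18 of 22 alternatives. It was 1 with DESeq2 (Gm11758). Leaving out 1 library of any group gave 0 to 3 genes. The 3 came without control 3: Prr18, Kcng2 and Vwa5a. Without control 3, stress 3, KYZY 2 and KYZY 3 it was 119 (52 higher, 67 lower), with 2 residual degrees of freedom and the lone KYZY 1 assumed to vary like the other groups. Of the genes described, those calls included Grb7, Pdpn, Stra6l, Aurkc and Itpr2. They also included Cphx1, Kcng2 and Prr18, whose values by library are given below. Cphx1 was read in 1 library of each group and was under the floor in the others. Kcng2 was under the floor only in control 1 and control 2. With those 4 libraries alone, a setting chosen after seeing the data with 1 residual degree of freedom, it was 3 (Cphx1, 1700047I17Rik2 and Hba-a1). The smallest adjusted p was 0.064 with the marker score as a covariate. Deviations of same-numbered control and KYZY libraries correlated at 0.56, -0.10 and 0.64, and those of differently numbered ones at -0.64 to 0.34. Control 1 and KYZY 1 were both of low cumulus score, and control 3 and KYZY 3 both of high score. Whether the replicate numbers pair the libraries thus cannot be told from these values. With the replicate block 0 genes were called, and 626 had an unadjusted p under 0.05 (337 higher, 289 lower). Without the block the same libraries gave 243 (74 higher, 169 lower). Of the 28 list medians, 15 changed sign when 1 control or KYZY library was left out. Genes under 1 CPM, of which there were 4037, had a median SE of 1.36.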

Other observations

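Some genes were read in certain mice and absent from others of the same group. Over the 9 libraries, 10 of the genes tested were under the floor in at least 1 library and at 5 CPM or more in every other one, a rule chosen after the data were seen. None was off in all 3 control and on in all 3 KYZY libraries, or the reverse. ICR is an outbred stock, and no genotypes were analysed here.

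Cphx1, a homeobox gene, was at 129, 153 and 172 CPM in the libraries control 3, stress 3 and KYZY 1 and at 0 in the other 6 libraries. Xaf1, an antagonist of apoptosis inhibitors, was at 0 in control 2, stress 1 and KYZY 1, at 42.8 CPM in control 1 and at 20.7 to 22.7 CPM in the remaining 5, so that its values lay on 3 levels. Mettl7a2 and Mettl7a3, neighbouring methyltransferase genes on chromosome 15, were at 0.0587 and 0 CPM in KYZY 2 and at 72.1 to 251 and 41.7 to 77.8 CPM in the other 8 libraries. They are close paralogs, between which reads may be split. Kcng2, a potassium channel subunit gene, was at 0 in control 1 and control 2 and at 9.59 to 26.0 CPM elsewhere. Nmrk1, a nicotinamide riboside kinase gene, was at 5.64 to 7.77 CPM in the 4 libraries of high cumulus score and under the floor in the other 5. Prr18, which did not meet the rule, was at 17.2 and 24.7 CPM in control 1 and control 2, 0.0781 CPM in control 3, 6.84 to 20.3 CPM in the stress libraries and 0.163 to 0.253 CPM in the KYZY libraries. The cause of these patterns was not tested.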
